A study of Mus musculus with 10 samples.

Results

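The 6 genes described here encode the chemokine receptors CCR1, CCR2, CCR6, CXCR3 and CXCR4 and the chemokine receptor-like protein CCRL2. They were taken by name from the 27179 genes of the count table, all 6 were present, and all 6 passed the filter on low counts. Their RNA was measured in myeloid cells sorted from mammary tissue of virgin C57BL/6 females, all adult, with no treatment or engineered allele named in the labels. The 5 populations were ductal macrophages, stromal macrophages and 3 groups of dendritic cells sorted by the integrins CD11b and CD103. The dendritic cells are called CD103+ (CD11b-CD103+), CD103- (CD11b-CD103-) and CD11b+ cells below. Each population had 2 biological replicates, and the labels do not state whether a replicate was 1 mouse or a pool.

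Chemokines are small secreted proteins that attract leukocytes, and most of their receptors are G protein-coupled receptors that signal through inhibitory G proteins to direct cell movement. A receptor usually binds several chemokines, and many chemokines bind more than 1 receptor. In tissue macrophages and dendritic cells, receptors of this family are known for guiding the recruitment of monocytes, the positioning of cells within a tissue and, through CCR7, the passage of dendritic cells to lymph nodes. Atypical members bind a ligand without the usual G protein signal and hold, present or remove it.

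Library totals ran from 5636092 to 23093742 counts, lowest in the ductal macrophages and in replicate 2 of the CD11b+ cells. Levels are given as CPM, a library's counts scaled to 1000000 by its TMM-adjusted total over tested genes, for replicates 1 and 2 in that order and then as mean ± SD (n = 2). A level of 3 counts corresponded to 0.119 to 0.683 CPM, depending on the library. Mitochondrial transcripts took 24.8% and 23.1% of the counts of the stromal macrophages and 0.631% to 6.29% elsewhere. Adjusted p-values are from edgeR's quasi-likelihood test over all 10 libraries with Benjamini-Hochberg adjustment over the 15681 tested genes of a pair, with calls made at an adjusted p under 0.05. Log2 fold changes carry an approximate SE, taken as their absolute value divided by the square root of the test's F statistic. In bulk RNA of this kind, fewer cells with a transcript and less of it per cell cannot be told apart.

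The labels were read against lineage markers. Flt3, a dendritic cell growth factor receptor gene, averaged 417 CPM in CD103+ cells, 379 CPM in CD103- cells and 17.5 CPM in CD11b+ cells, and at most 1.70 CPM in macrophages. Adgre1, which encodes the macrophage antigen F4/80, averaged 937 CPM in ductal macrophages, 308 CPM in stromal macrophages, 292 CPM in the CD11b+ cells and at most 5.02 CPM in the other dendritic cells. The CD11b+ cells thus had low Flt3 and a level of Adgre1 near that of stromal macrophages, and they are called dendritic cells here only as labelled. The full lists read otherwise in part. The 7 macrophage markers summed to 14560 and 13000 CPM in ductal and 5807 and 4061 CPM in stromal macrophages. Their sums were 1119 and 1161 CPM in CD11b+ cells and 20.3 to 77.9 CPM in the other dendritic cells. The 5 dendritic cell markers summed to 1053 and 754.9 CPM in ductal and 43.0 and 116.2 CPM in stromal macrophages. Their sums were 306.6 and 201.8 CPM in CD11b+ cells and 974.8 to 1330 CPM in the other dendritic cells. Replicate 2 of the CD103- cells stood apart in B cell markers. The 5 listed B cell genes summed to 34.5 CPM in replicate 1 and 280.3 CPM in replicate 2 of those cells, against 5.44 to 19.5 CPM in the other 8 libraries.

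Ccr1, Ccr2 and Ccrl2 lie on chromosome 9 (GRCm38). Ccr1 (gene ID 12768, 123962126 to 123968692, minus strand) and Ccr2 (gene ID 12772, 124101918 to 124109140, plus strand) belong to a row of receptor genes that also holds Ccr9, Cxcr6, Xcr1, Ccr1l1 and Ccr3. Ccrl2 (gene ID 54199, 111054834 to 111057518, minus strand) lies apart from that row. Ccr6 (gene ID 12458) is on chromosome 17 from 8236041 to 8258519, Cxcr3 (gene ID 12766) on chromosome X from 101731535 to 101734147, and Cxcr4 (gene ID 12767) on chromosome 1 from 128588199 to 128592299. All 6 are protein coding and overlap no other GENCODE gene. Of the 6729 distinct stretches of 80 bases, the read length, in Ccr2 transcripts, 73 also occur in another gene, so a small part of its reads could be shared. The other 5 genes share no such stretch with another gene.

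The sequences just upstream of 3 start sites are shown because Ccr1 and Ccrl2 had the most similar pattern of any pair of the 6, given below, and Cxcr4 varied least between populations. Each run is the 250 bases before the RefSeq start (GRCm38.p6), read 5′ to 3′ on the gene's own strand. The positions are chr9:123968693-123968942 for Ccr1, chr9:111057519-111057768 for the first listed of 3 starts of Ccrl2, and chr1:128592300-128592549 for Cxcr4, all on the minus strand. Capitals mark a match to 1 of 5 searched motifs.
Ccr1: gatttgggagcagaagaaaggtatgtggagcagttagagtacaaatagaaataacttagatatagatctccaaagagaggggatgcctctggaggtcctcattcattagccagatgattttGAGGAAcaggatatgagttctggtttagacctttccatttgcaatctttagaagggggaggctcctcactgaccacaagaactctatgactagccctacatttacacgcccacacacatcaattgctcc
Ccrl2: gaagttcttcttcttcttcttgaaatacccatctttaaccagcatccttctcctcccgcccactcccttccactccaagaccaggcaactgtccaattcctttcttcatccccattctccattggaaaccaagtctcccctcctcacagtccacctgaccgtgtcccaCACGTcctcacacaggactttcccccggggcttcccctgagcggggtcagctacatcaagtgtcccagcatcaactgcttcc
Cxcr4: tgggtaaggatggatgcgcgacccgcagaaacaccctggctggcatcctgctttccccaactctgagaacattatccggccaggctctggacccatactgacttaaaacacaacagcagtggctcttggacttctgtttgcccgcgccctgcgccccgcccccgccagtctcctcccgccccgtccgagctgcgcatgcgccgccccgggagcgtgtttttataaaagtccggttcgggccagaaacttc
The motifs searched on both strands were the PU.1 core GAGGAA, an ETS-IRF composite of GGAA and GAAA with 2 free bases between them, an interferon response motif of GAAA and GAAA with the same gap, the AP-1 motif TGANTCA and the hypoxia response core ACGTG. They do not contain one another as spelled, although both motifs that end in GAAA can overlap. The Ccr1 window held GAGGAA 124 to 129 bases before the start, and the Ccrl2 window held ACGTG on the opposite strand 78 to 82 bases before it. No match of the 5 occurred in the Cxcr4 window. Among 32851 mouse promoter windows of that length, GAGGAA occurred in 23.3%, ACGTG in 16.6%, TGANTCA in 6.75%, the interferon response motif in 2.98% and the ETS-IRF composite in 2.30%. GAGGAA also occurred once before the first start of Ccr6 and once before Cxcr3. ACGTG also occurred 208 to 212 bases before the second start of Ccr6, and before the other starts of Ccrl2. No motif occurred in the Ccr2 window, chr9:124101933-124102182. That window lies inside the gene span given above, so the bases before that span were not searched.

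Ccr1 was high in ductal macrophages and CD11b+ cells, lower in stromal macrophages, and lowest in the CD103+ and CD103- dendritic cells. CCR1 is a receptor for inflammatory CC chemokines such as CCL3, CCL5, CCL6 and CCL9 on monocytes and macrophages. Its levels were 567.6 and 616.6 CPM in ductal macrophages (592 ± 34.6), 495.0 and 453.6 CPM in CD11b+ cells (474 ± 29.2), 218.9 and 118.1 CPM in stromal macrophages (168 ± 71.3), 34.3 and 11.3 CPM in CD103+ cells (22.8 ± 16.3), and 1.79 and 4.12 CPM in CD103- cells (2.96 ± 1.64). No population's libraries overlapped with those of its neighbour in this order, but the order was not separated by the test at each step. Ductal macrophages and CD11b+ cells differed by a log2 fold change of 0.32 ± 0.48 (adjusted p = 0.687). The CD11b+ cells exceeded stromal macrophages (stromal minus CD11b+ -1.49 ± 0.49, adjusted p = 0.0454), and stromal macrophages exceeded CD103+ cells (2.88 ± 0.52, adjusted p = 0.00175).

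The widest separation of Ccr1 was between ductal macrophages and CD103- cells, at a log2 fold change of 7.61 ± 0.65 (adjusted p = 1.62e-05). CD103- cells lay 7.29 ± 0.65 log2 units below CD11b+ cells (log2 fold change -7.29, adjusted p = 4.3e-05). Ductal macrophages also exceeded stromal macrophages, by 1.81 ± 0.50 (adjusted p = 0.0182). That call rested on single libraries, with an adjusted p of 0.0673 and 0.0712 without ductal replicate 1 or 2 and 0.0872 without stromal replicate 2. The call between stromal macrophages and CD11b+ cells was likewise lost without ductal replicate 1 (adjusted p = 0.0705) or 2 (0.070), stromal replicate 2 (0.182), or CD11b+ replicate 1 (0.166) or 2 (0.127).

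Within the CD11b- dendritic cells, Ccr1 was higher in both CD103+ libraries than in both CD103- libraries, with a log2 fold change of 2.91 ± 0.55 that did not pass (adjusted p = 0.138, unadjusted p = 0.000254). It passed with DESeq2 (adjusted p = 5.08e-06), without the filter on low counts (0.00019) and without CD103+ replicate 2 (0.0431). The CD103+ library with more Ccr1, replicate 1, also had more of the 7 listed macrophage markers (77.9 against 39.0 CPM in replicate 2), of the 6 cDC2 markers, those of CD11b+-type conventional dendritic cells (93.1 against 64.8 CPM), and of the 5 mast cell markers (10.6 against 0 CPM, with Ms4a2 at 0 in both). Stromal macrophages stood apart in the mast cell list, at 164.1 and 58.2 CPM against 0 to 10.6 CPM in the other 8 libraries, and stromal replicate 1 was also the stromal library with more Ccr1, Ccr2 and macrophage markers (5807 against 4061 CPM). The part of these markers in the levels of Ccr1 and Ccr2 was not tested.

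Ccr2 had another order, with CD11b+ cells highest and both macrophage populations lowest. CCR2 binds CCL2, CCL7 and CCL12 and is known for the exit of monocytes from bone marrow and their entry into tissues. Its levels were 1407 and 1014 CPM in CD11b+ cells (1211 ± 278), 304.6 and 449.6 CPM in CD103- cells (377 ± 102.5), 185.6 and 277.8 CPM in CD103+ cells (232 ± 65.2), 145.1 and 76.0 CPM in stromal macrophages (110.5 ± 48.9), and 94.1 and 59.2 CPM in ductal macrophages (76.6 ± 24.7). Both CD11b+ libraries lay above the other 8, while the ductal and stromal libraries overlapped.

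The CD11b+ cells exceeded each other population in Ccr2. The log2 fold change against them was -3.98 ± 0.43 for ductal macrophages (adjusted p = 8.6e-05), -3.45 ± 0.42 for stromal macrophages (adjusted p = 0.000202), -2.39 ± 0.40 for CD103+ cells (adjusted p = 0.00217) and -1.68 ± 0.39 for CD103- cells (adjusted p = 0.013). The last of these did not pass without CD103- replicate 1 (adjusted p = 0.103) or CD11b+ replicate 1 (0.0973). CD103- cells exceeded ductal macrophages (ductal minus CD103- -2.30 ± 0.40, adjusted p = 0.00179) and stromal macrophages (stromal minus CD103- -1.77 ± 0.39, adjusted p = 0.0055).

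Ccr2 of CD103+ cells stood between these groups. Ductal macrophages lay lower (log2 fold change -1.60 ± 0.39, adjusted p = 0.0135), a call lost without ductal replicate 2 (adjusted p = 0.112) or CD103+ replicate 2 (0.0825). Stromal macrophages missed the threshold against CD103+ cells (-1.07 ± 0.38, adjusted p = 0.0526) and passed with DESeq2 (0.00956), with library totals alone (0.00334), with RLE size factors (0.038), without the low-count filter (0.0169), without mitochondrial transcripts (0.0397) and without stromal replicate 1 (0.0146). Neither the macrophage pair (-0.53 ± 0.39, adjusted p = 0.323) nor the CD103+ and CD103- pair (-0.70 ± 0.38, adjusted p = 0.851) passed. Of the 6 listed monocyte markers, Fn1, the fibronectin gene, which other cells also express, stood at 2305 and 2008 CPM in CD11b+ cells, and Ly6c2, the gene of the monocyte antigen LY6C, at 2.41 and 1.98 CPM there. The whole monocyte list summed to 2338 and 2034 CPM in CD11b+ cells and to 40.1 to 181 CPM in the other 8 libraries, and its part in the Ccr2 level was not tested.

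Ccrl2 followed Ccr1 across macrophages and CD11b+ cells. CCRL2 is an atypical receptor that binds chemerin, the product of Rarres2, and presents it to cells that bear the signalling chemerin receptor CMKLR1. Its levels were 722.5 and 893.9 CPM in ductal macrophages (808 ± 121), 634.2 and 641.4 CPM in CD11b+ cells (638 ± 5.12), 110.2 and 172.4 CPM in CD103+ cells (141 ± 44.0), 134.0 and 142.1 CPM in stromal macrophages (138 ± 5.73), and 48.6 and 30.9 CPM in CD103- cells (39.8 ± 12.5). The libraries thus fell at 3 levels, with the stromal macrophages inside the range of the CD103+ cells.

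Ductal macrophages exceeded stromal macrophages in Ccrl2 by a log2 fold change of 2.55 ± 0.31 (adjusted p = 0.000153), CD103+ cells by 2.52 ± 0.31 (adjusted p = 0.000206) and CD103- cells by 4.35 ± 0.34 (adjusted p = 8.79e-06). They did not pass against CD11b+ cells (0.34 ± 0.30, adjusted p = 0.449). CD11b+ cells likewise exceeded stromal macrophages (stromal minus CD11b+ -2.21 ± 0.31, adjusted p = 0.000503), CD103+ cells (-2.17 ± 0.31, adjusted p = 0.000784) and CD103- cells (-4.01 ± 0.33, adjusted p = 2.84e-05). Stromal macrophages exceeded CD103- cells (1.80 ± 0.31, adjusted p = 0.00114), and their difference from CD103+ cells was -0.03 ± 0.30 (adjusted p = 0.945). Both CD103+ libraries lay above both CD103- libraries, by a log2 fold change of 1.83 ± 0.31 that did not pass (adjusted p = 0.131, unadjusted p = 9.41e-05). It passed with DESeq2 (adjusted p = 1.04e-06), without the low-count filter (0.00132) and without CD103+ replicate 1 (0.0484).

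**Figure D1:**
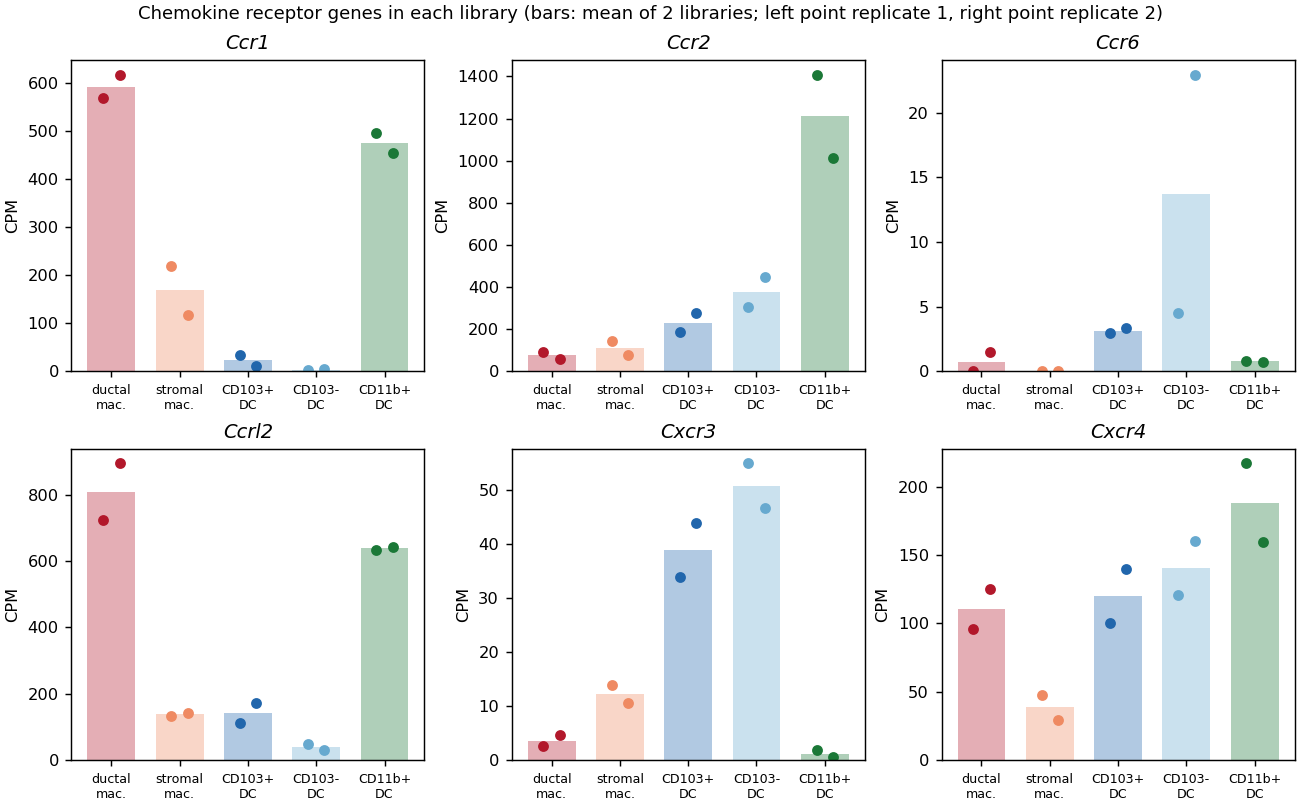
Level of each of the 6 chemokine receptor genes in CPM (vertical axis from 0, a panel per gene) by population, with a bar at the mean of 2 libraries and points for replicate 1 (left) and 2 (right). Ccr1 and Ccrl2 were highest in ductal macrophages and CD11b+ cells, Cxcr3 in CD103- and CD103+ cells, and replicate 2 of the CD103- cells held the highest Ccr6 level, at 22.9 CPM.

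Cxcr3 ran the other way, with both CD11b- dendritic cell populations highest. CXCR3 binds the interferon-induced chemokines CXCL9, CXCL10 and CXCL11 and is best known on activated T cells and natural killer cells. Its levels were 54.9 and 46.6 CPM in CD103- cells (50.7 ± 5.87), 33.9 and 43.8 CPM in CD103+ cells (38.8 ± 7.02), 14.0 and 10.6 CPM in stromal macrophages (12.3 ± 2.41), 2.51 and 4.54 CPM in ductal macrophages (3.52 ± 1.44), and 1.79 and 0.539 CPM in CD11b+ cells (1.16 ± 0.884). No 2 populations overlapped. The 6 listed T cell markers summed to 6.71 and 11.2 CPM in CD103+ cells, 10.2 and 8.55 CPM in CD103- cells, 11.9 and 7.54 CPM in CD11b+ cells and 0.750 to 5.49 CPM in macrophages, with Cd3e and Cd3g at 0 in the stromal ones. The 5 natural killer cell markers summed to 7.662 and 7.997 CPM in CD103+ cells, 3.87 and 12.5 CPM in CD103- cells, 4.26 and 3.05 CPM in CD11b+ cells and 1.99 to 4.79 CPM in macrophages, with Eomes at 0 in CD103+ cells and ductal macrophages. The part of T cell or natural killer cell RNA in the Cxcr3 level was not tested.

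The log2 fold change of Cxcr3 against CD11b+ cells was 5.25 ± 0.47 in CD103- cells (adjusted p = 4.47e-05), 4.87 ± 0.47 in CD103+ cells (adjusted p = 7.69e-05) and 3.21 ± 0.45 in stromal macrophages (adjusted p = 0.00054). Ductal macrophages did not pass against CD11b+ cells (1.43 ± 0.50, adjusted p = 0.0632), but did with DESeq2 (0.029), without the low-count filter (0.0371) and without CD11b+ replicate 1 (0.0329). Cxcr3 thus separated both CD11b- groups from the CD11b+ cells, while those groups did not pass against each other (-0.39 ± 0.36, adjusted p = 0.916). Ductal macrophages lay below CD103- cells (-3.83 ± 0.44, adjusted p = 0.000113) and CD103+ cells (-3.44 ± 0.44, adjusted p = 0.000248), and stromal macrophages lay below the same groups (-2.05 ± 0.38, adjusted p = 0.00197, and -1.66 ± 0.38, adjusted p = 0.00641). Among the 6 genes, Cxcr3 was the one called lower in ductal than in stromal macrophages (-1.78 ± 0.43, adjusted p = 0.00991). That call was lost without ductal replicate 1 (adjusted p = 0.101), and the call between stromal macrophages and CD103+ cells without CD103+ replicate 2 (0.0515).

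Cxcr4 varied least in its mean level. CXCR4 is the receptor of CXCL12 and is known for retaining cells in bone marrow and other CXCL12-rich sites. Its levels were 216.9 and 159.1 CPM in CD11b+ cells (188 ± 40.9), 121.0 and 159.9 CPM in CD103- cells (140.5 ± 27.5), 99.9 and 139.8 CPM in CD103+ cells (120 ± 28.2), 95.9 and 125.4 CPM in ductal macrophages (111 ± 20.9), and 47.8 and 29.5 CPM in stromal macrophages (38.7 ± 12.9). Both stromal libraries lay below the other 8, which overlapped in part. Stromal macrophages were lower than each other population, with log2 fold changes of -2.28 ± 0.32 against CD11b+ cells (adjusted p = 0.000527), -1.86 ± 0.32 against CD103- cells (adjusted p = 0.00114) and -1.63 ± 0.31 against CD103+ cells (adjusted p = 0.00259). Ductal macrophages exceeded them by 1.52 ± 0.32 (adjusted p = 0.00436). These 4 calls kept their direction and side of the threshold under every alternative run. The other 6 pairs did not pass, with adjusted p from 0.1 to 0.937. With library totals alone, ductal macrophages were lower than CD103- cells (adjusted p = 0.0184) and CD11b+ cells (0.0196). The stromal macrophages were also the libraries with the high mitochondrial share given above. The 4 calls also passed with mitochondrial transcripts left out, but that run only drops those counts and leaves the other counts of each library unchanged. Whether the Cxcr4 level goes with the mitochondrial share was not tested.

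Ccr6 was the scarcest of the 6. CCR6 is the receptor of CCL20 and is known on B cells, some T cells and subsets of dendritic cells. Its levels were 4.49 and 22.9 CPM in CD103- cells (65 and 507 counts, 13.7 ± 13.0), 2.94 and 3.33 CPM in CD103+ cells (3.13 ± 0.274), 0.825 and 0.718 CPM in CD11b+ cells (0.772 ± 0.0758), and 0 and 1.51 CPM in ductal macrophages (0 and 8 counts). Stromal macrophages had no count in either library, which allows a level of up to 0.0847 CPM over both (3 counts, counting error only). The SD in CD103- cells was nearly as large as the mean, since replicate 2 was far above replicate 1.

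Against the floor of 3 counts over both stromal libraries, Ccr6 was at least 162-fold higher in CD103- cells (adjusted p = 0.000953) and at least 37-fold higher in CD103+ cells (adjusted p = 0.0041). From replicates 1 and 2 alone, against the same floor, the bounds were 53-fold and 271-fold in CD103- cells and 34.7-fold and 39.3-fold in CD103+ cells, so the first bound depended on CD103- replicate 2. These single-library bounds were added after the data were seen. From the means of both libraries, Ccr6 was at least 9.12-fold higher in CD11b+ cells (adjusted p = 0.0314) and at least 8.94-fold higher in ductal macrophages (adjusted p = 0.0335). Replicates 1 and 2 alone gave 9.75-fold and 8.48-fold in CD11b+ cells. Ductal replicate 1 had no count and gave no bound, and ductal replicate 2 alone gave 17.9-fold. The ductal call rested on the 8 counts of replicate 2, and without that library the adjusted p was 1. It was also lost without stromal replicate 1 (0.084) or 2 (0.0763), CD103+ replicate 2 (0.0503), or CD11b+ replicate 1 (0.0521) or 2 (0.0555). The CD11b+ call was lost without either library of those cells (adjusted p = 0.128 and 0.0839) or without stromal replicate 1 (0.0795) or 2 (0.0772).

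CD103- cells also exceeded CD11b+ cells in Ccr6 (log2 fold change 4.12 ± 1.05, adjusted p = 0.0233) and ductal macrophages (ductal minus CD103- -4.10 ± 1.09, adjusted p = 0.0223). Without CD103- replicate 2 the differences became 2.51 (adjusted p = 0.217) and -2.50 (adjusted p = 0.217), so neither call held without that library. The first was also lost without CD11b+ replicate 1 (0.156) or 2 (0.163) and the second without ductal replicate 1 (0.109). CD103- and CD103+ cells did not pass (CD103+ minus CD103- -2.13 ± 0.90, adjusted p = 0.769).

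The library with the most Ccr6 was the one with the most B cell transcripts. In CD103- replicates 1 and 2, Ms4a1, the gene of CD20, stood at 7.53 and 90.8 CPM and Cd79a, a chain of the B cell receptor complex, at 10.7 and 62.6 CPM. Pax5, a B lineage transcription factor gene, had 12 and 28 counts there and was at 0 in the other 8 libraries, in which the other 4 of the 5 B cell markers had counts in each population. Cxcr5, a B cell follicle-homing receptor gene chosen after its values were seen, stood at 1.38 and 8.37 CPM in those replicates and at no more than 1.51 CPM elsewhere. Between CD103- replicates 1 and 2, Ccr6 and the B cell list moved in the same direction, and the part of B cell RNA in the Ccr6 level was not tested. In CD103+ cells, whose B cell list summed to 5.44 and 7.40 CPM with Pax5 at 0, Ccr6 stood at the 2.94 and 3.33 CPM given above.

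**Figure D2:**
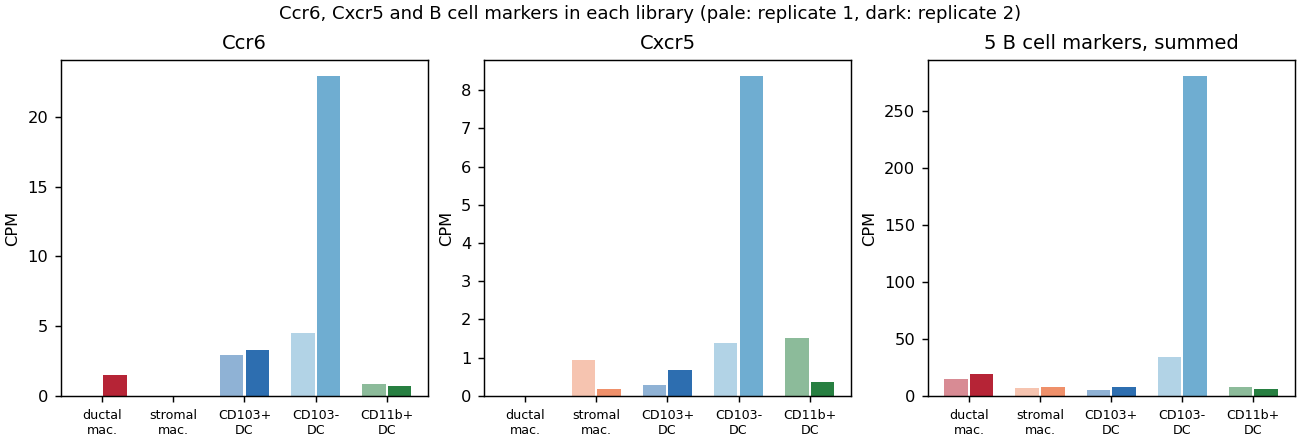
Ccr6, Cxcr5 and the sum of 5 B cell markers in CPM (vertical axes from 0, a panel each) by population, with 1 bar per library, pale for replicate 1 and dark for replicate 2. Replicate 2 of the CD103- cells is highest in all 3 panels, with 22.9 CPM of Ccr6, 8.37 CPM of Cxcr5 and 280.3 CPM of B cell markers.

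Read pair by pair, 5 of the 6 genes were called between ductal and stromal macrophages, where 30.6% of all tested genes were called (16.3% higher and 14.3% lower in ductal cells). Ccr1, Ccr6, Ccrl2 and Cxcr4 were higher and Cxcr3 was lower in ductal cells. Ductal macrophages had 2 genes higher (Ccr1 and Ccrl2) and 2 lower (Ccr2 and Cxcr3) than CD103+ cells (23.9% of all genes called, 12.5% higher and 11.4% lower), and the same 2 higher and 3 lower (also Ccr6) than CD103- cells (22.9%, with 12.2% higher and 10.7% lower). Against CD11b+ cells a single gene was called, with Ccr2 lower in ductal macrophages (23.3% of all genes, 11.9% higher and 11.4% lower).

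Stromal macrophages had 1 gene higher (Ccr1) and 3 lower (Ccr6, Cxcr3 and Cxcr4) than CD103+ cells (33.6% of all genes called, 16% higher and 17.5% lower). All 6 genes were called against CD103- cells (35.3% of all genes, 17% higher and 18.4% lower), with Ccr1 and Ccrl2 higher, and all 6 against CD11b+ cells (26.1%, with 11.6% higher and 14.5% lower), with Cxcr3 alone higher in stromal macrophages. The CD11b+ cells differed from CD103+ cells in 4 genes (20.8% of all genes called, 11.2% higher and 9.54% lower in CD11b+ cells) and from CD103- cells in 5 (17.5%, with 9.62% higher and 7.93% lower in CD11b+ cells). In both, Ccr1, Ccr2 and Ccrl2 were higher in CD11b+ cells and Cxcr3 was lower, and in the second Ccr6 was lower as well. These pairs share libraries, so their counts are not independent.

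None of the 6 genes was called between CD103+ and CD103- cells by edgeR, where 0.0319% of all genes (5 of 15681) were called, all 5 higher in CD103+ cells (0% lower). At an unadjusted p under 0.05 there were 3 of the 6 (Ccr1, Ccr6 and Ccrl2) and 1000 of all genes. DESeq2 called 2 of the 6 (Ccr1 and Ccrl2), but it also called more of all genes in this pair than edgeR did, as given in the last section. By gene, Ccr1 and Cxcr3 passed in 8 of the 10 pairs, Ccr2 and Ccrl2 in 7, Ccr6 in 6 and Cxcr4 in 4.

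**Figure D3:**
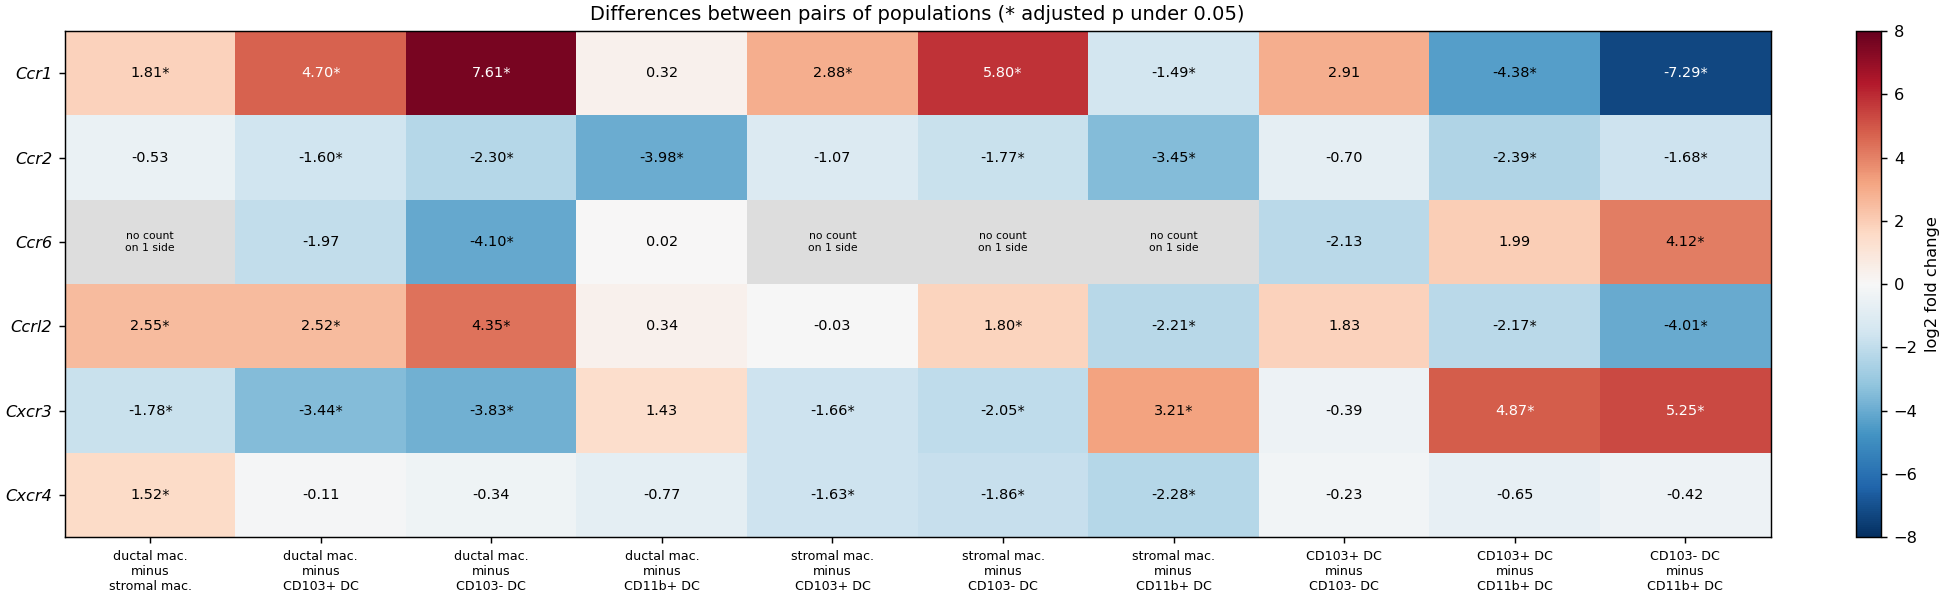
Log2 fold change of each gene (rows) in each of the 10 pairs of populations (columns, first minus second), with red for higher and blue for lower in the first and a star at an adjusted p under 0.05. Grey cells mark Ccr6 against stromal macrophages, which had no count, and the column of CD103+ minus CD103- cells has no star.

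Levels of different genes were compared per gene length, as RPKM (CPM divided by the gene's length in kilobases) with the deposited lengths of 1608 to 3589 bases. Ccrl2 ranked first of the 6 in ductal macrophages, with 54.9% and 58.0% of their summed RPKM, followed by Ccr1 with 32.2% and 29.8%. In stromal macrophages the same genes had the highest mean RPKM, with 29.4% and 44.0% for Ccrl2 and 35.8% and 27.3% for Ccr1, so that the first rank differed between replicates. Ccr2 ranked first in CD11b+ cells (39.7% and 33.8%) and CD103- cells (40.1% and 46.5%). In CD103+ cells Ccrl2 (27.0% and 30.4%), Cxcr4 (28.5% and 28.6%) and Ccr2 (26.7% and 28.8%) took nearly equal shares. The CD11b- dendritic cells were also where Cxcr3 had its greatest share, at 10.9% and 10.1% in CD103+ and 16.1% and 10.8% in CD103- cells, against at most 4.29% elsewhere.

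The summed RPKM of the 6 genes was 988.5 and 835.2 in CD11b+ cells and 623.6 and 730.6 in ductal macrophages. It was 211.5 and 269.5 in CD103- cells, 193.6 and 269.0 in CD103+ cells, and 216.3 and 153.1 in stromal macrophages. The last 3 populations overlapped with one another and lay below the first 2. The sum is a description and was not tested.

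**Figure D4:**
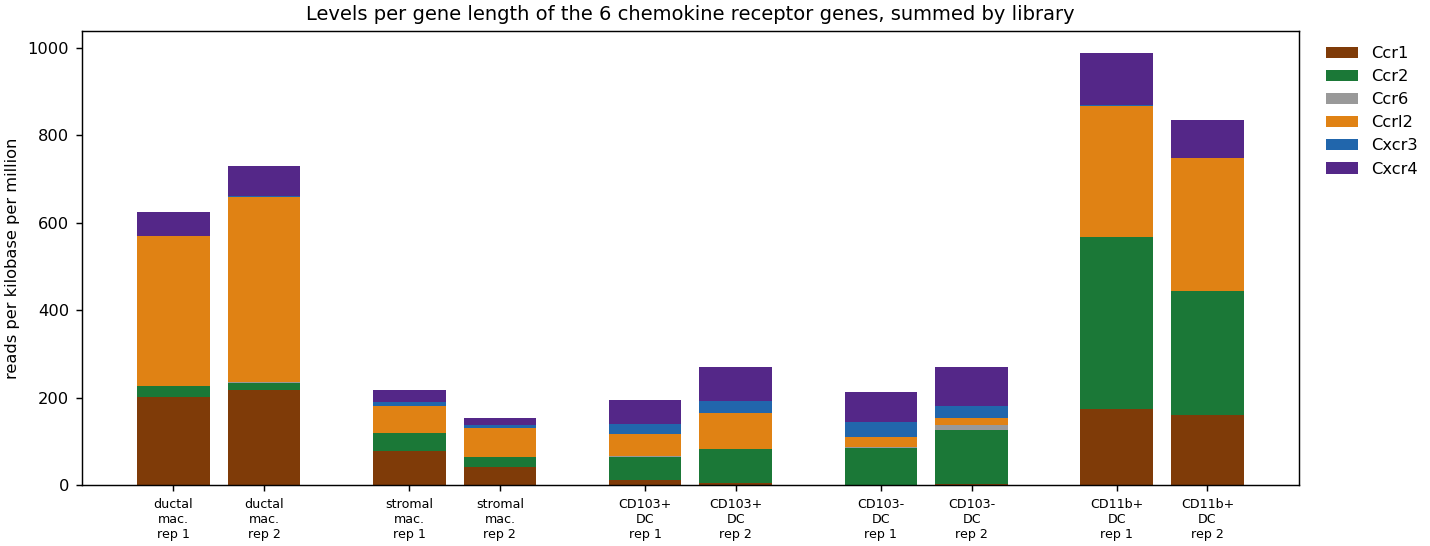
RPKM of the 6 genes stacked for each of the 10 libraries, with gene colours in the legend. CD11b+ cells and ductal macrophages have the tallest bars, made mostly of Ccrl2 and Ccr1 in ductal macrophages and of Ccr2, Ccrl2 and Ccr1 in CD11b+ cells.

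Across the 10 libraries, Ccr1 and Ccrl2 were the most alike of the 6 (Pearson r = 0.892 of log2 CPM), and each ran against Cxcr3 (r = -0.87 for Ccr1 and -0.866 for Ccrl2). Libraries of a population sit together and share depth and makeup, so these values describe 5 populations more than 10 points. Among named genes reaching 30 CPM in some population, the closest to Ccr1 were Pilrb2 (r = 0.977), Cxcl2 (0.973), which encodes a neutrophil-attracting chemokine, and Ptafr (0.967), the platelet-activating factor receptor gene. Those closest to Ccrl2 were Pilra (0.967), the gene of an inhibitory receptor of myeloid cells, Hilpda (0.955), a hypoxia-inducible lipid droplet gene, and Cd14 (0.953), the lipopolysaccharide co-receptor gene.

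The closest genes to Ccr2 were Gm14548 (r = 0.979), Lilra6 (0.964) and Batf3 (0.962), the last a transcription factor gene of conventional dendritic cells. Cxcr3 was closest to P3h2 (0.973), Map4k5 (0.965) and Rnf167 (0.963), and Cxcr4 to Mtdh (0.966), Cd44 (0.962), the hyaluronan receptor gene, and Selenos (0.953). The closest to Ccr6 were Dtl (0.953), Hmgb2 (0.951) and Polr1c (0.950), of which Dtl acts in DNA replication control and Hmgb2 encodes a chromatin protein abundant in dividing cells.

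Other receptors of the family were read from a list of 20, of which 16 could be tested. Between ductal and stromal macrophages 4 were higher in ductal cells, none was lower and 12 did not pass, with a median log2 fold change of 1.33 against -0.10 for all tested genes. Of all tested genes, 16.3% were higher and 14.3% lower in ductal cells. Among the 4 were Ccr7, the lymph node homing receptor gene, Cx3cr1, the fractalkine receptor gene, and Xcr1, a receptor gene of cross-presenting dendritic cells. Xcr1 stood at 7.75 and 5.11 CPM in ductal against 0.497 and 0 CPM in stromal macrophages, a log2 fold change of 4.61 ± 0.80 (adjusted p = 0.00155). Both ductal libraries were thus above both stromal libraries, yet far below the CD103+ and CD103- cells described next.

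Of the same 16 receptors, ductal macrophages had 2 higher (Cx3cr1 and Cmklr1) and 1 lower than CD11b+ cells, against 11.9% and 11.4% of all genes. CD103- cells had 3 higher (Xcr1, Cx3cr1 and Ccr7) and 2 lower (1 of them Cmklr1) than CD11b+ cells, against 7.93% and 9.62% of all genes. None was called between CD103+ and CD103- cells by edgeR, against 0.0319% of all genes. In that pair 5 had an unadjusted p under 0.05, against 1000 of all 15681 genes, and DESeq2 called 1. The median log2 fold changes of the 16 receptors in these 3 pairs were 0.08, 0.54 and 0.51, against -0.05, 0.05 and -0.02 for all genes. Cmklr1, the gene of the signalling chemerin receptor, stood at 17.1 and 26.5 CPM in ductal against 29.5 and 20.2 CPM in stromal macrophages, 3.85 and 5.75 CPM in CD11b+ cells and at most 0.760 CPM in the other dendritic cells. Ductal macrophages thus had more of it than CD11b+ cells (2.21 ± 0.59, adjusted p = 0.0208), where Ccrl2 of the same 2 populations did not pass. That call was lost with library totals alone (adjusted p = 0.051) and without any 1 of these 4 libraries (0.0528 to 0.159). Xcr1 was 222.7 and 377.7 CPM in CD103+ and 225.4 and 258.0 CPM in CD103- cells against 7.63 and 2.69 CPM in CD11b+ cells (CD103- minus CD11b+ 5.45 ± 0.60, adjusted p = 0.000164), the same direction as Cxcr3. Ccr7 was 668.4 and 1235 CPM in CD103+, 318.6 and 308.5 CPM in CD103- and 147.0 and 92.8 CPM in CD11b+ cells (CD103- minus CD11b+ 1.38 ± 0.35, adjusted p = 0.0221). The Ccr7 call was lost without CD103- replicate 1 (0.0775) or 2 (0.066) or CD11b+ replicate 2 (0.188), and that of Cx3cr1 (2.85 ± 0.79, adjusted p = 0.0289) without any 1 of the 4 libraries (0.0669 to 0.183).

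Genes of the ligands were read from a list of 15, of which 14 could be tested. In ductal against stromal macrophages, 8 were lower, 1 was higher and 5 did not pass (median log2 fold change -1.64 against -0.10 for all genes). Of all genes, 14.3% were lower and 16.3% higher in this pair. The ligand genes of CCR2 were among those lower in ductal macrophages. Ccl2 stood at 15.5 and 20.4 CPM in ductal against 1059 and 712.5 CPM in stromal macrophages (-5.62 ± 0.37, adjusted p = 4.16e-06), and Ccl12 at 18.2 and 36.5 CPM against 294.3 and 224.0 CPM (-3.24 ± 0.37, adjusted p = 0.000103). The change of Ccl7 was larger than both, with 8.656 and 21.75 CPM against 1708 and 1263 CPM (-6.597 ± 0.478, adjusted p = 7.04e-06). The ligand genes of CCR1 were divided. Ccl6 stood at 158.1 and 251.0 CPM in ductal against 7249 and 6931 CPM in stromal macrophages (-5.12 ± 0.43, adjusted p = 1.66e-05), and Ccl9 was lower as well (-3.55 ± 0.32, adjusted p = 2.31e-05). Ccl3, the 1 higher gene, stood at 334.2 and 255.3 CPM against 153.7 and 87.4 CPM (1.29 ± 0.36, adjusted p = 0.0207), and did not pass without ductal replicate 1 (0.136) or stromal replicate 2 (0.11).

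CD11b+ cells had high levels of several of these ligand genes together with Ccr1 and Ccr2. Ccl2 stood there at 948.0 and 949.3 CPM, Ccl6 at 6066 and 5648 CPM and Ccl9 at 2830 and 2030 CPM. Against CD11b+ cells, 8 of the 14 ligand genes were lower and 1 was higher in CD103- cells, against 9.62% and 7.93% of all genes. The median of the 14 was -2.07 against 0.05 for all genes, with Ccl9 at -8.38 ± 0.41 (adjusted p = 2.16e-06). The 1 higher gene was Cxcl9, an interferon-induced ligand gene of CXCR3, at 126.6 and 101.3 CPM against 19.1 and 10.8 CPM (2.91 ± 0.44, adjusted p = 0.00128). In ductal macrophages 5 (Ccl2, Ccl6, Ccl7, Ccl9 and Cxcl10) were lower and 1, Ccl12, was higher than in CD11b+ cells (3.05 ± 0.41, adjusted p = 0.000366), with a median of -0.01 against -0.05 for all genes. Of all genes, 11.4% were lower and 11.9% higher in ductal macrophages. Of the 5, the Cxcl10 call (-1.76 ± 0.38, adjusted p = 0.00726) was lost without ductal replicate 2 (0.0682) or CD11b+ replicate 1 (0.0813). None of the 14 was called between CD103+ and CD103- cells by edgeR, against 0.0319% of all genes (median 0.59 against -0.02 for all genes). In that pair 3 had an unadjusted p under 0.05, against 1000 of all 15681 genes, and DESeq2 called 1.

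The CXCR3 ligand genes did not share 1 pattern. Cxcl10, chosen after its values were seen, stood at 715.1 and 348.8 CPM in CD11b+ cells and 105.6 and 55.5 CPM in CD103- cells, the reverse of Cxcl9 (CD103- minus CD11b+ -2.73 ± 0.40, adjusted p = 0.000979). Cxcl12, the CXCR4 ligand gene, likewise chosen after its values were seen, stood at 103.9 and 86.1 CPM in stromal and 12.8 and 32.3 CPM in ductal macrophages (ductal minus stromal -2.07 ± 0.49, adjusted p = 0.0094), so that in this pair the ligand gene was higher where its receptor gene Cxcr4 was lower. Without ductal replicate 1 the Cxcl12 difference was -1.55 (adjusted p = 0.0884). Stromal macrophages also exceeded CD11b+ cells in Cxcl12 (2.30 ± 0.49, adjusted p = 0.00621). They did not pass against CD103+ cells (0.44 ± 0.46, adjusted p = 0.499) or CD103- cells (1.29 ± 0.47, adjusted p = 0.0527), although Cxcr4 was lower in stromal macrophages there too. The 5 listed fibroblast markers, genes of cells that express CXCL12, summed to 1092 and 1508 CPM in stromal and 400.9 and 1182 CPM in ductal macrophages. Their sums were 818 and 887.3 CPM in CD103+, 538.1 and 339.8 CPM in CD103- and 278.4 and 502.1 CPM in CD11b+ cells. The 5 endothelial markers summed to 497.2 and 284.8 CPM in CD103+ cells and 383.7 and 119.6 CPM in CD103- cells. Elsewhere their sums were 29.2 to 154.9 CPM. The part of either list in the Cxcl12 level was not tested. Ccl20, the CCR6 ligand gene, and Rarres2, the chemerin gene, were also chosen after their values were seen. Ccl20 had 10 counts in all 10 libraries together and was not tested. Rarres2 stood between 3.53 CPM, in CD103- replicate 2, and 19.4 CPM, in stromal replicate 1. The 6 listed adipocyte markers summed to 236.9 to 723.6 CPM in stromal macrophages, CD103+ and CD103- cells. In ductal macrophages and CD11b+ cells they summed to 47.15 to 142.8 CPM. Their part in the Rarres2 level was not tested.

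**Figure D5:**
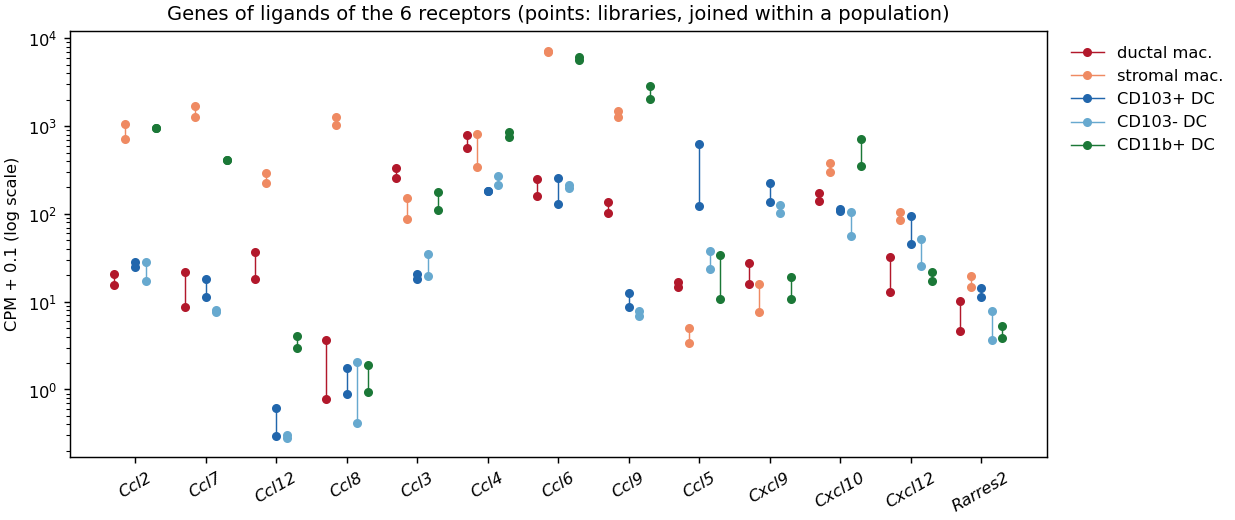
Levels of 13 ligand genes of the receptors as CPM + 0.1 (log axis), with 1 point per library and a line joining the 2 libraries of a population, coloured by population. Ccl2, Ccl6, Ccl7 and Ccl9 are high in stromal macrophages and CD11b+ cells, and Cxcl9 is highest in CD103+ and CD103- cells, while Ccl20 and Cxcl11 are not drawn.

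Signalling genes downstream of the receptors were read from a list of 24, all tested. Between ductal and stromal macrophages 10 were higher, 3 lower and 11 did not pass (median 0.14 against -0.10 for all genes). Of all genes, 16.3% were higher and 14.3% lower in ductal cells. Plcb2, the gene of a phospholipase C activated by G protein subunits, stood at 112.1 and 98.2 CPM in ductal against 0.497 and 0.520 CPM in stromal macrophages (7.67 ± 0.32, adjusted p = 4.78e-07). Pik3r5, a regulatory subunit gene of the phosphoinositide 3-kinase that receptors of this class activate, was higher in ductal cells too (3.49 ± 0.31, adjusted p = 2.2e-05). So was Rgs1 (3.23 ± 0.38, adjusted p = 0.000121), whose product ends G protein signals, while Rgs18 of the same family stood at 0.456 and 0.757 CPM in ductal against 178.1 and 88.5 CPM in stromal macrophages (-7.73 ± 0.66, adjusted p = 1.66e-05). The other 2 lower genes were Rgs14 (-2.13 ± 0.28, adjusted p = 0.000277), of the same family, and Grk6 (-1.16 ± 0.22, adjusted p = 0.00263), a receptor kinase gene.

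In ductal macrophages against CD11b+ cells 7 of the 24 were higher and 6 lower (median -0.04 against -0.05 for all genes), against 11.9% and 11.4% of all genes. Arrb2, the gene of an arrestin that uncouples and internalises receptors, stood at 222.8 and 290.7 CPM in ductal macrophages and 42.1 and 55.8 CPM in CD11b+ cells (2.40 ± 0.25, adjusted p = 6.94e-05), and Grk6 was lower in ductal macrophages (-2.09 ± 0.23, adjusted p = 8.65e-05). In CD103- against CD11b+ cells 3 were higher (Pik3cg, Plcb2 and Elmo1) and 4 lower (Rac2, Pik3r5, Rgs1 and Rgs19), with a median of -0.40 against 0.05. Of all genes, 7.93% were higher and 9.62% lower in CD103- cells. Pik3cg, the catalytic partner of Pik3r5, was higher in CD103- cells (2.56 ± 0.29, adjusted p = 0.000187), whereas Pik3r5 was lower (-1.25 ± 0.29, adjusted p = 0.0127), as was Rac2, a GTPase gene of leukocyte movement (-1.58 ± 0.26, adjusted p = 0.00203). The Pik3r5 call was lost without CD103- replicate 2 (0.0831) or CD11b+ replicate 1 (0.125), and those of Plcb2, Elmo1, Rgs1 and Rgs19 were each lost in at least 2 of the runs with 1 library left out, at an adjusted p of up to 0.238. None of the 24 was called between CD103+ and CD103- cells by edgeR, against 0.0319% of all genes (median -0.13 against -0.02). In that pair 4 had an unadjusted p under 0.05, against 1000 of all 15681 genes, and DESeq2 called none.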

How the data were processed

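RNA-seq counts of 10 libraries, 2 for each of 5 sorted populations, were analysed. The authors deposited unnormalized read counts per gene, for which the submitters' processing notes name featureCounts and the mm10 genome. The aligner, the gene models and any use of strand were not given in the sources used here. RefSeq symbols were found for 25275 of 27179 gene IDs. Single-library tables held the same counts as the series table. Counts were fitted in R 4.3.3 with edgeR 4.0.16 (filterByExpr with minimum count 10 and minimum total 15, TMM factors 0.779 to 1.36) over all libraries, with 1 contrast for each of 10 pairs. The fit left 5 residual degrees of freedom. The quasi-likelihood test adds prior degrees of freedom estimated across genes, so its p-values also lean on the spread of other genes. The script was tested on simulated data. Where a population had no count, folds were taken against 3 counts over its libraries. Floors cover counting error only.

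The 6 genes and all lists were chosen with earlier results of these data known. Genes named from a list were mostly the called ones of largest change, at most 4 per list and pair with at least 10 CPM on the higher side. Not all of these are named, and some called genes outside this rule are. In ductal against stromal macrophages the latter include Ccl9, Ccl12 and Xcr1, which was below 10 CPM on both sides. For each receptor the 3 genes of highest correlation were named (log2 CPM with a prior count of 2, at least 30 CPM). Alternatives were RLE size factors, library totals alone, DESeq2 1.42.0, no low-count filter, a replicate block, removal of mitochondrial transcripts, and each library left out. No genome sequence was used beyond RefSeq promoter windows. Some genes of the lists are counted but not reported by name here.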

Additional observations from a re-analysis of the deposited data

How the results depend on the processing

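Each receptor gene in each pair was recomputed under 16 alternatives, 960 comparisons in all, of which 905 kept direction and side of the threshold, 30 lost a call, 17 gained one and 8 changed sign, none of them in a called difference. The sign changes were log2 fold changes for Ccr6 in ductal minus CD11b+ cells (-0.177 with library totals alone, -0.451 with the replicate block, and -6.69 to 0.946 with 1 library left out, the lowest of these where no ductal count remained), and with 1 library left out for Ccr2 in ductal minus stromal macrophages (-0.923 to 0.0396), Cxcr4 in ductal minus CD103+ cells (-0.339 to 0.143) and Ccrl2 in stromal minus CD103+ cells (-0.325 to 0.319). In the CD103+ and CD103- pair, DESeq2 and the analysis without a filter each called 2 receptor genes, 1 other receptor, 1 ligand gene and 150 genes in all, against 0, 0, 0 and 5. In ductal against CD11b+ cells the receptor genes called were 2 with library totals alone, with DESeq2 and without a filter, against 1. The cause was not tested.

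With 1 library left out, receptor genes called ranged from 3 to 5 for ductal against stromal macrophages, 3 to 4 against CD103+, 4 to 5 against CD103- and 1 to 2 against CD11b+ cells. For stromal macrophages they were 3 to 5 against CD103+, 6 to 6 against CD103- and 4 to 6 against CD11b+ cells, and for dendritic cells 0 to 1 (CD103+ and CD103-), 4 to 4 (CD103+ and CD11b+) and 3 to 5 (CD103- and CD11b+). Over all genes, in the same order, calls ranged from 2536 to 4742, 1714 to 4444, 1914 to 4227 and 1740 to 4173 for ductal macrophages, 3244 to 5300, 3882 to 5286 and 2054 to 4007 for stromal macrophages, and 2 to 18, 1423 to 3939 and 1222 to 3370 among dendritic cells. For ductal against stromal, ductal against CD11b+, CD103+ against CD103- and CD103- against CD11b+ cells, other receptors ranged from 3 to 5, 1 to 3, 0 to 1 and 3 to 7, ligand genes from 6 to 9, 5 to 7, 0 to 1 and 8 to 9, and signalling genes from 8 to 13, 8 to 13, 0 to 0 and 3 to 8. The alternatives for these lists were added after the data were seen. Of 848 comparisons of their named genes, 794 kept direction and side and 54 lost the call.

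Replicate numbers were the same in all populations, but deviations of same-numbered libraries from their population means correlated at 0.102 to 0.177 in 4 of the 10 pairs of populations and at -0.176 to -0.124 in the other 6. The positive values were those among ductal macrophages, stromal macrophages and CD11b+ cells, and that between CD103+ and CD103- cells. Every value across these groups was negative, so the signs were not scattered. Because not every pair exceeded 0.1, the numbers were not taken to pair the libraries. The replicate block fits the same shift in all populations, so it cannot take up shifts of opposite direction. The source of this pattern was not tested. With the replicate block, the call of Ccr1 between stromal macrophages and CD11b+ cells was lost (adjusted p = 0.0528), as were those of Rgs1 (0.0601) and Rgs19 (0.0551) between CD103- and CD11b+ cells, and genes called between CD103+ and CD103- cells were 3 against 5. Library totals alone took the median log2 fold change of all genes to as low as -0.722 (ductal minus CD103-, against -0.109 with TMM). They turned the split of calls there from 1917 higher and 1680 lower to 1104 and 3982. They moved 9 of 30 population means of the receptor genes by more than 1 SD, and RLE size factors moved none. With 2 libraries per population and 3 counts worth up to 0.683 CPM, differences of Ccr6 among ductal macrophages, stromal macrophages and CD11b+ cells rest on few counts.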
